A study of Homo sapiens with 5 samples.

Results

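The reference cultures of a knockdown and differentiation experiment in SH-SY5Y cells were set against each other: the library titled siControl, from cells given a control siRNA, and the library titled Nondifferentiation, from cells that the deposited column name calls proliferating. Neither was depleted of a factor or differentiated, and each is 1 library of the 5 in the study. A gene entered the comparison when the larger of its log2 values in these libraries was at or above 7.8. By that rule 8566 of 26364 gene symbols were measured. A difference is always siControl minus Nondifferentiation on the log2 scale of the deposited values. A gene is counted at 2-fold when the difference is at least 1 in size.

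SH-SY5Y (CRL-2266) is a human neuroblastoma line with sympathetic, noradrenergic features that is widely used as a model of neuronal differentiation. The study titled its libraries siControl, siSTAU1, siUPF1, Nondifferentiation and Differentiation, and its question was which transcripts increase with loss of STAU1 and UPF1 as well as with differentiation. All 5 labels list 10% fetal bovine serum and 1% penicillin/streptomycin, and those of Nondifferentiation and Differentiation add 50 µM retinoic acid, which the siControl label does not. The sequence of the control siRNA, the transfection agent, the time after transfection and the cell density were not given in the sources used here.

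A small interfering RNA is carried into cells with a transfection agent, and cultures treated in this way differ from untreated ones in handling as well as in the RNA they receive. Cells answer serum and growth factors through immediate early genes, damage through the transcription factor p53, and unfolded proteins in the endoplasmic reticulum (ER) through a programme that raises chaperones. Foreign double-stranded RNA can be sensed by helicases and kinases that start an interferon response. Genes of all these systems were listed, with earlier results of these data known, and read in both libraries.

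RNA was read by 3′ end sequencing of polyadenylated RNA. By the spacing of low values, siControl held about 16200000 reads and Nondifferentiation about 18700000, with 16600000 to 28800000 in the other 3 libraries. At the floor of 7.8 a gene rested on about 185 reads in siControl and 214 in Nondifferentiation, which gives a counting standard error (SE) of 0.145 for the difference. The SE printed beside a gene covers counting error only. There was 1 culture in each group, so the spread between cultures is unknown, no test was possible and no p-value is given. Over the measured genes the median difference was 0.01 and the SD of the differences was 0.31.

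Markers of the line were read first. Of 16 genes listed for sympathetic neuroblastoma, 11 were measured. The summed linear level of all 16 was 80010.6 in siControl and 80201.8 in Nondifferentiation. GATA3, a transcription factor of sympathetic neurons, stood at 14.53 in siControl and 14.31 in Nondifferentiation, and HAND2, another, at 12.47 and 12.70. The neurofilament genes NEFM and NEFL, which mark neurons, were listed at 0 in both. STAU1 and UPF1, the targets of the other siRNAs, stood at 12.87 and 10.74 in siControl and at 12.86 and 10.62 in Nondifferentiation.

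The Nondifferentiation library did not show the high levels of retinoic acid target genes that the Differentiation library did, although both labels list the compound. CYP26A1, an enzyme that breaks retinoic acid down and is a direct target of its receptors, was listed at 0 in siControl and Nondifferentiation and stood at 14.38 in Differentiation. CYP26B1, a related enzyme, stood at 1.49 in siControl, was listed at 0 in Nondifferentiation and stood at 16.22 in Differentiation. RARB, a retinoic acid receptor that is itself induced by the compound, stood at 7.8, 8.36 and 13.11 in these libraries. CRABP2, which carries retinoic acid to the nucleus, stood at 9.84 in siControl, 10.82 in Nondifferentiation and 16.03 in Differentiation. Of 26 listed retinoic acid response genes 10 were measured, with a median difference of -0.28 and 0 past 2-fold in either direction. That median turned to 0.10 when the floor was lowered to 7.

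Of the 8566 measured genes, 68 (0.794%) differed by 2-fold or more: 19 (0.222%) were higher in siControl and 49 (0.572%) were lower. Differences below 0 were found in 49.0% of the measured genes. The higher genes ranged from 2.0-fold to 4.91-fold with a median of 2.17-fold, and 1 of them passed 3-fold. The lower genes ranged from 2.02-fold to 27.3-fold with a median of 2.39-fold, and 12 of them passed 3-fold. At 1.5-fold, 195 genes (2.28%) were higher and 275 (3.21%) were lower, 5.49% in all. In 6 of the 19 higher genes and 28 of the 49 lower genes both values were at or above 7.8, and the others passed the floor in 1 library only. MCUR1 lay just inside the floor and PAAF1 just outside it, both at 7.8 after rounding. In bulk RNA, fewer cells of a type and less RNA per cell cannot be told apart.

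The count between these references, 68, was larger than that between siControl and either other transfected library. It was smaller than that between siSTAU1 and siUPF1. Measured in the same way, 18 genes (0.211%) passed 2-fold between siControl and siSTAU1, 47 (0.549%) between siControl and siUPF1 and 73 (0.853%) between siSTAU1 and siUPF1. Against Nondifferentiation, 78 (0.911%) did in siSTAU1 and 117 (1.36%) in siUPF1. Between Nondifferentiation and Differentiation 1923 genes (21.4%) did. These comparisons share libraries, so their counts are given side by side only.

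**Figure D1:**
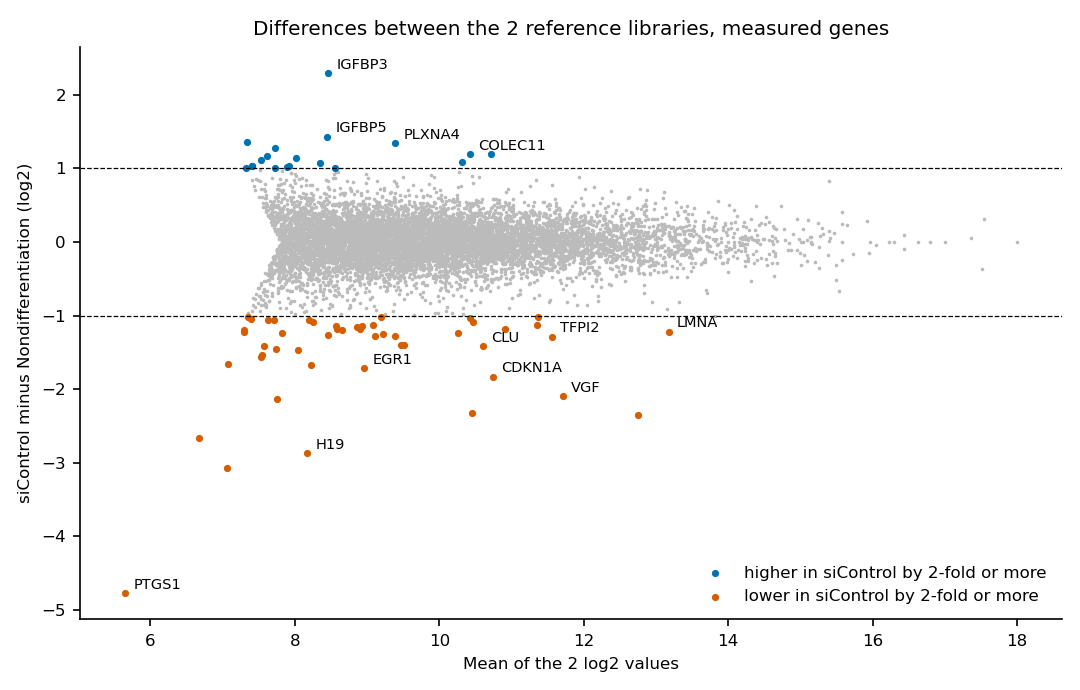
Difference (siControl minus Nondifferentiation, log2) of every measured gene against the mean of its log2 values. The dashed lines mark 2-fold, the 19 blue points lie above and the 49 orange points below, and grey points are the other measured genes. PTGS1 lies lowest and IGFBP3 highest.

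The insulin-like growth factor (IGF) genes held large differences in both directions. IGF2, a fetal growth factor that acts through the IGF1 receptor, stood at 11.57 in siControl and 13.92 in Nondifferentiation, beside 10.90 in siSTAU1, 10.77 in siUPF1 and 8.95 in Differentiation. It was 5.11-fold lower in siControl than in Nondifferentiation (SE 0.03 on the log2 scale), from about 2519 and 14890 reads. H19, the noncoding RNA of the same imprinted region, stood at 6.73 in siControl and 9.60 in Nondifferentiation, beside 6.18 in siSTAU1 and 5.70 in siUPF1, and was listed at 0 in Differentiation. Its difference was -2.87 (SE 0.16). All 3 transfected libraries thus lay below Nondifferentiation for both genes. INS-IGF2 and HOTS differed by -2.33 and -2.67, but they overlap IGF2 and H19, so their reads cannot be told apart from those of their partners.

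A pair of IGF binding proteins lay the other way. IGFBP3, a secreted protein that holds IGFs in the medium, stood at 9.61 in siControl and 7.31 in Nondifferentiation, beside 10.68 in siSTAU1, 11.02 in siUPF1 and 8.71 in Differentiation. It was 4.91-fold higher in siControl (SE 0.13 on the log2 scale). IGFBP5, another of the family, stood at 9.16 in siControl and 7.73 in Nondifferentiation, beside 9.63 in siSTAU1, 9.76 in siUPF1 and 10.04 in Differentiation, a difference of 1.43 (SE 0.12). Nondifferentiation was the lowest of the 5 libraries for both. Of 20 listed IGF genes 15 were measured, with a median of -0.10 beside 0.01 for all measured genes. In this list 2 were higher and 3 lower at 2-fold, beside 0.222% and 0.572% of all measured genes. The lower members include an overlapping symbol of the kind named above, so shared reads may be counted more than once. The receptors IGF1R and IGF2R had differences of -0.24 and -0.35. The other measured binding proteins had smaller differences than IGFBP3 and IGFBP5, with IGFBP2 at 0.11, IGFBP4 at -0.02 and IGFBP7 at -0.10.

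The largest difference of all was that of PTGS1, the constitutive cyclooxygenase of prostaglandin synthesis. It stood at 3.26 in siControl and 8.03 in Nondifferentiation, beside 6.52 in siSTAU1, 6.38 in siUPF1 and 6.89 in Differentiation. The 27.3-fold lower level in siControl rested on about 7 reads there against 251 (SE 0.55), and siControl was the lowest library, below both other transfected ones.

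**Figure D2:**
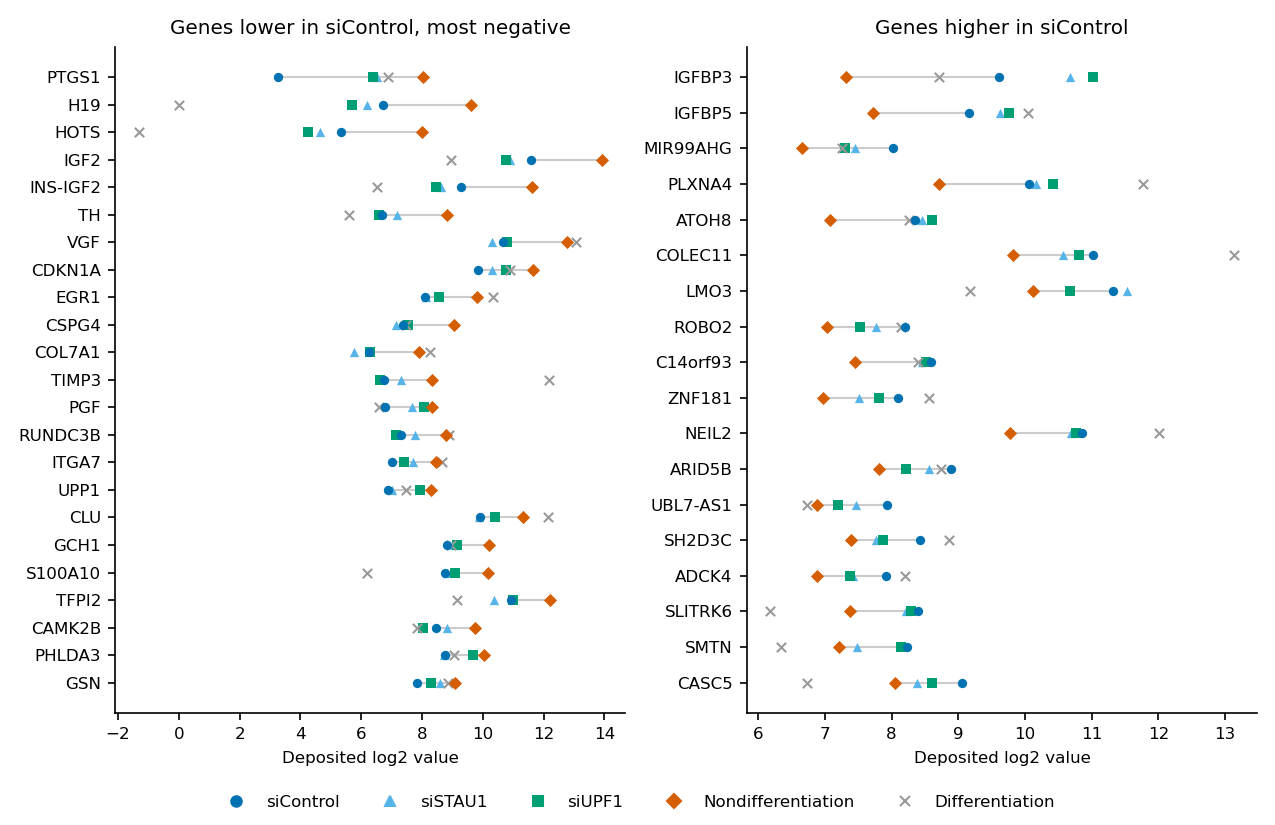
Deposited log2 values in all 5 libraries for reported genes with the most negative differences (left) and those higher in siControl by 2-fold or more (right). The grey line joins siControl and Nondifferentiation. IGF2 stands at 11.57 in siControl and 13.92 in Nondifferentiation, and IGFBP3 at 9.61 and 7.31.

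Immediate early genes, transcribed within minutes of a growth signal, were mostly lower in siControl. Of 33 listed genes 14 were measured: 12 were negative, 3 passed 2-fold lower and 0 higher, and the median was -0.49. Over all measured genes 49.0% were negative, 0.572% passed 2-fold lower and the median was 0.01. The same 14 genes had medians of -0.29 in siSTAU1 and -0.14 in siUPF1 against Nondifferentiation, which is the shared reference in these comparisons. EGR1, a zinc finger transcription factor of this class, stood at 8.10 in siControl and 9.82 in Nondifferentiation, beside 8.14 in siSTAU1, 8.57 in siUPF1 and 10.35 in Differentiation. It was 3.29-fold lower in siControl (SE 0.11 on the log2 scale). KLF10 differed by -1.19 and DUSP4, a phosphatase that switches off MAP kinases, by -1.18. SRF, the serum response factor, and DUSP6 were the positive members, at 0.29 and 0.39. FOS did not reach the floor, at 4.20 in siControl and 6.71 in Nondifferentiation.

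VGF, a neuropeptide precursor induced by growth factors and cAMP, stood at 10.66 in siControl and 12.76 in Nondifferentiation, beside 10.31 in siSTAU1, 10.80 in siUPF1 and 13.07 in Differentiation. It was 4.27-fold lower in siControl (SE 0.04 on the log2 scale), and the 3 transfected libraries lay together below the other pair. Its promoter carries a cAMP response element (TGACGTCA), a palindrome bound by CREB. It is shown because it was the only such match among the 31 genes of the 2-fold lower set with a promoter entry (3.23%). The motif was found in 3.39% of the 6699 measured genes with an entry and in 1.65% of all 35116 promoters. The stretch is printed 5′ to 3′ on the gene's strand from RefSeq (GRCh38.p14, chr7:101165621-101165668, minus strand), with the motif, which starts 79 bases before the gene start, in capitals.
VGF: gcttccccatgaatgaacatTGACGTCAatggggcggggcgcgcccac

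Target genes of p53 were also mostly lower in siControl. Of 28 listed genes 22 were measured: 19 were negative and 4 passed 2-fold lower, beside 49.0% and 0.572% of all measured genes. In the list 0 passed 2-fold higher, and the median was -0.41. Against Nondifferentiation the same genes had medians of -0.29 in siSTAU1 and -0.21 in siUPF1. CDKN1A, which encodes the cyclin-dependent kinase inhibitor p21, stood at 9.83 in siControl and 11.66 in Nondifferentiation, beside 10.30 in siSTAU1, 10.77 in siUPF1 and 10.89 in Differentiation. It was 3.55-fold lower in siControl (SE 0.06 on the log2 scale), with siControl the lowest library and Nondifferentiation the highest. PHLDA3, an inhibitor of AKT, differed by -1.28, the stress cytokine GDF15 by -1.25, and FDXR, a mitochondrial reductase, by -1.24. PPM1D and XPC were barely positive, at 0.03 and 0.05. TP53I3, a quinone oxidoreductase, was the highest member, at 10.24 in siControl and 9.46 in Nondifferentiation. MDM2, the ubiquitin ligase that holds p53 down, stood at 12.33 and 12.56, and BAX, a cell death effector, differed by -0.07.

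Chaperones and folding factors of the ER formed the third lower group. This list was split off from a wider stress list after values were seen, and 20 of its 22 genes were measured. In it 19 were negative and 2 passed 2-fold lower, beside 49.0% and 0.572% of all measured genes. In the list 0 passed 2-fold higher, and the median was -0.49. The same genes had medians of -0.42 in siSTAU1 and -0.49 in siUPF1 against the shared Nondifferentiation library. CRELD2 and MANF, secreted stress-induced ER proteins, stood at 9.91 and 10.86 in siControl and at 10.95 and 11.88 in Nondifferentiation, differences of -1.04 and -1.02. HSPA5, the main ER chaperone BiP, stood at 12.54 in siControl and 13.35 in Nondifferentiation, beside 12.56 in siSTAU1, 12.64 in siUPF1 and 13.59 in Differentiation. Its difference was -0.81, and the transfected libraries lay closest together and below the other pair. PDIA4, a disulphide isomerase, differed by -0.81, CALR by -0.59 and HSP90B1 by -0.51, while SEL1L, of the degradation machinery, differed by 0.24.

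The wider stress list that the ER genes were split from had 27 of 37 genes measured. Of these 22 were negative, 2 passed 2-fold lower and 0 higher, and the median was -0.39. Over all measured genes 49.0% were negative and 0.572% passed 2-fold lower. Another arm of the stress response was near balance. Both this list and the ER list were written after values were seen, so the contrast between them is a description only. Of 23 listed ATF4 targets of amino acid supply, also listed after values were seen, 16 were measured, with 8 negative, 8 positive and a median of 0.04. ASNS, asparagine synthetase, stood at 13.49 in siControl and 13.08 in Nondifferentiation, and PHGDH, the first enzyme of serine synthesis, at 8.46 and 7.53. ATF4 itself stood at 12.02 and 11.69.

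**Figure D3:**
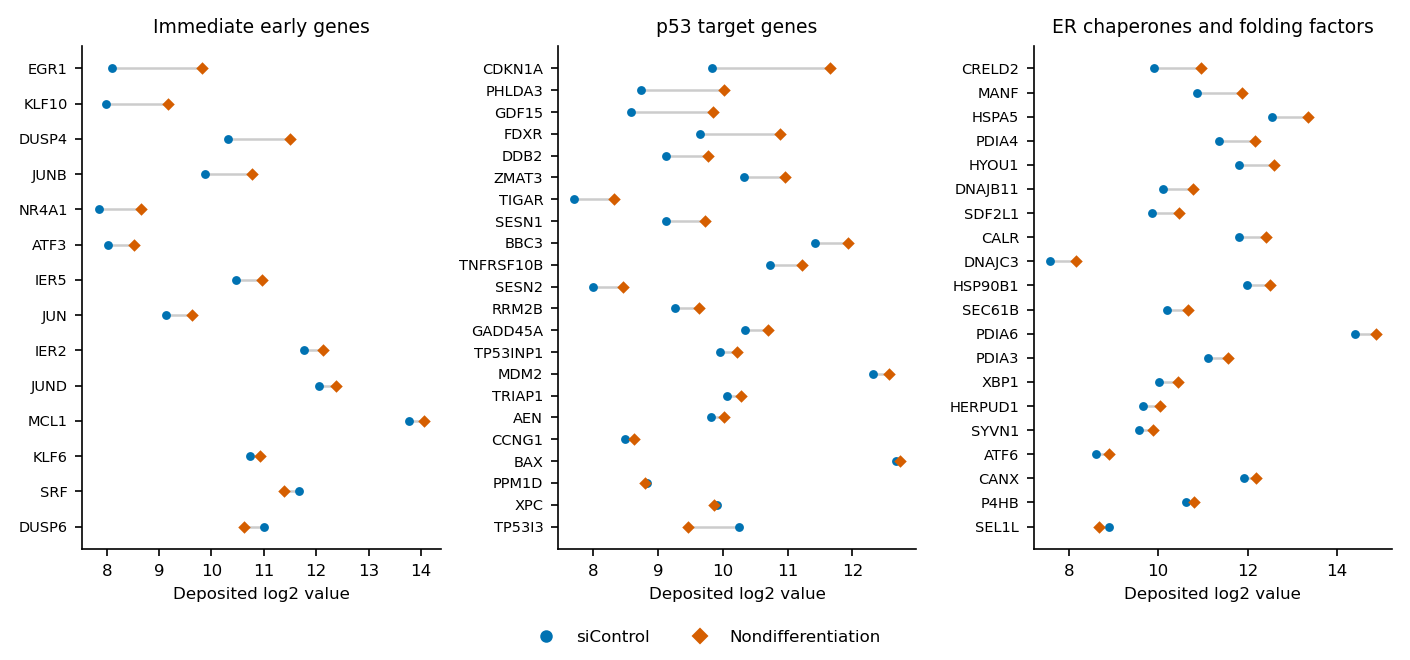
Deposited log2 values of each measured immediate early gene, p53 target and ER chaperone or folding factor in siControl (blue circles) and Nondifferentiation (orange diamonds), ordered by difference. The circle lies left of the diamond in 12 of 14, 19 of 22 and 19 of 20 genes.

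The ER stress element, the pair CCAAT and CCACG 9 bases apart, was found in the 250 bases before the gene start of 6 of the 19 ER genes with a promoter entry (31.6%). It was in 9 of 6699 measured genes (0.134%) and 26 of all 35116 promoters (0.074%). Both strands were searched, and each such element also counts as a CCAAT box, which 84.2% of these ER genes and 35.8% of measured genes held. The matches are shown because they are letters that several members share. The list holds genes in which this element is known, so its share is no independent evidence. They are printed 5′ to 3′ on the gene's strand from RefSeq (GRCh38.p14) with the paired motifs in capitals. In CALR and CRELD2 the element lies on the opposite strand. The windows are HSPA5 at chr9:125241371-125241429 (minus), HSP90B1 at chr12:103930196-103930254 (plus), CALR at chr19:12938364-12938422 (plus), CANX at chr5:179698758-179698816 (plus), CRELD2 at chr22:49918534-49918592 (plus) and XBP1 at chr22:28800583-28800641 (minus).
HSPA5: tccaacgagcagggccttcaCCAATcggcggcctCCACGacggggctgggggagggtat
HSP90B1: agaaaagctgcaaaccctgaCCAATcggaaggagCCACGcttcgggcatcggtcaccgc
CALR: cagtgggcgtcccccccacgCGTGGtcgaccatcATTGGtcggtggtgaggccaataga
CANX: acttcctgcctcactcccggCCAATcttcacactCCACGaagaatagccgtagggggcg
CRELD2: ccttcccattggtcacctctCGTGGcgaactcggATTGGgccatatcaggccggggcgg
XBP1: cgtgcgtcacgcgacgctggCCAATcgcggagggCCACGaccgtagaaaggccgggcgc
The 6 genes differed by -0.81, -0.51, -0.59, -0.29, -1.04 and -0.43 in this order. A match is a description of the letters and not of binding.

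Genes of catecholamine synthesis were lower at particular steps. TH, tyrosine hydroxylase, the rate-limiting enzyme, stood at 6.69 in siControl and 8.82 in Nondifferentiation, beside 7.18 in siSTAU1, 6.58 in siUPF1 and 5.58 in Differentiation. It was 4.37-fold lower in siControl (SE 0.17 on the log2 scale), and all 3 transfected libraries lay below Nondifferentiation. GCH1, which makes the cofactor that TH needs, stood at 8.81 and 10.21 in siControl and Nondifferentiation, and DBH, which turns dopamine into noradrenaline, at 10.79 and 11.91. DDC, the enzyme between TH and DBH, differed by -0.23, and MAOA, which breaks amines down, by 0.46. Of 15 genes in this list, written after values were seen, 10 were measured with a median of -0.24 and 3 past 2-fold lower. Over all measured genes 0.572% were past 2-fold lower.

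Secretory and synaptic genes lay on the same side. All 11 measured genes of 37 listed for synaptic vesicles, SNAREs and secretory granules were negative, with a median of -0.41 and 2 past 2-fold, VGF and NPY. The shares over all measured genes were 49.0% negative and 0.572% past 2-fold lower. NPY, the neuropeptide co-released with noradrenaline, stood at 8.05 in siControl and 9.25 in Nondifferentiation, beside 8.52 in siSTAU1, 8.57 in siUPF1 and 6.15 in Differentiation. SYN2, a synaptic vesicle protein, and the granin SCG2 each differed by -0.47. Differences at the upper end of the list were small, with SYT11 at -0.26, SV2A at -0.15 and the highest member at -0.01. Outside this list, and named because they passed 2-fold, RIMS2, a presynaptic scaffold, differed by -1.23 and CAMK2B, a calcium-dependent kinase, by -1.28.

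S100 genes, which encode small calcium-binding proteins, were mostly lower, and the annexins listed with them differed less evenly. Of 28 genes in this list, written after values were seen, 11 were measured: 10 were negative, 4 passed 2-fold lower and the median was -0.82. The shares over all measured genes were 49.0% negative and 0.572% past 2-fold lower. S100A10, the partner of annexin A2, stood at 8.76 in siControl and 10.17 in Nondifferentiation, beside 8.82 in siSTAU1, 9.08 in siUPF1 and 6.17 in Differentiation, a difference of -1.40. ANXA2 itself stood at 11.11 and 11.92 in siControl and Nondifferentiation, but ANXA5 and ANXA7 differed by only -0.16 and -0.12. The 4 genes past 2-fold were all S100 genes. S100A11, S100A4 and S100A6 differed by -1.14, -1.13 and -1.08, and S100A13 by 0.12.

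LMNA, which encodes the nuclear lamins A and C, had the highest siControl value of the 2-fold lower genes. It stood at 12.57 in siControl and 13.79 in Nondifferentiation, beside 12.72 in siSTAU1, 13.12 in siUPF1 and 13.36 in Differentiation, a difference of -1.22 (SE 0.02). GSN, the actin-severing protein gelsolin, differed by -1.27, and PTRF, which forms caveolae, by -1.19. Of 36 listed mesenchymal genes 17 were measured, with a median of -0.24, 5 past 2-fold lower and 0 higher. The 5 were PTRF, TNFRSF12A and 3 of the S100 genes above, and 0.572% of all measured genes were lower by 2-fold.

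Other genes of the lower set encode secreted, matrix and membrane proteins. TFPI2, a protease inhibitor, differed by -1.28, TIMP3, an inhibitor of matrix metalloproteinases, by -1.57 and CLU, an extracellular chaperone, by -1.41. COL7A1, the collagen of anchoring fibrils, differed by -1.66, the proteoglycan CSPG4 by -1.67, the laminin receptor subunit ITGA7 by -1.46 and the placental growth factor PGF by -1.53. The measured matrix list as a whole, 19 of 96 genes, had a median of -0.12 with COL7A1, ITGA7 and TIMP3 past 2-fold lower, beside 0.572% of all measured genes. DLK1, an imprinted membrane protein of the Notch ligand family, fell just short of 2-fold, at 13.31 in siControl and 14.31 in Nondifferentiation. The remaining 2-fold lower genes reported are RUNDC3B, UPP1, ATP2A3, TFEB, TNFRSF12A, IGSF1, BEST1, PDE8B, AMT, NRG1, SHISA5, SNORA12 and RNU6-2, with differences from -1.47 to -1.01. SNORA12 and RNU6-2 are symbols of small RNAs, and whether their reads came from the small RNA itself is uncertain in a kit for polyadenylated RNA. Among them TFEB, a transcription factor of lysosomal genes, differed by -1.19, and the lysosomal list had a median of -0.12 over 30 measured genes.

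Mitotic genes were the broadest group on the higher side, by small amounts. All 52 listed G2 and mitosis genes were measured: 3 were negative and 49 positive, where 49.0% of all measured genes were negative. In the list 6 passed 1.5-fold higher, beside 2.28% of all measured genes, 0 passed 2-fold, and the list median was 0.31. The same 52 genes had medians of 0.27 in siSTAU1, 0.31 in siUPF1 and -2.34 in Differentiation against the shared Nondifferentiation library. CENPE, a kinetochore motor, stood at 10.74 in siControl and 9.79 in Nondifferentiation, beside 10.36 in siSTAU1, 10.44 in siUPF1 and 7.39 in Differentiation. NDC80, which couples kinetochores to microtubules, stood at 8.01 and 7.03 in siControl and Nondifferentiation, and CENPF at 13.14 and 12.42. ANLN and SGOL1 were the lowest members, at -0.19 and -0.14.

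Other proliferation lists had smaller medians. DNA replication genes had a median of 0.12 over 43 measured of 48 listed, with 34 positive and 0 past 1.5-fold in either direction. Of a kinetochore list of 35 genes written after values were seen, 30 were measured with a median of 0.09. In this list 6 passed 1.5-fold higher and 2 passed 2-fold higher, beside 2.28% and 0.222% of all measured genes. CASC5, the kinetochore scaffold, was among the 2, at 9.06 in siControl against 8.06 in Nondifferentiation. In the promoters of the mitotic genes, TTTGAA, the letters of a cell cycle homology region, was found in 21 of 43 (48.8%) and CCAAT in 32 (74.4%), against 8.34% and 35.8% of measured genes. These shares set listed cell cycle genes beside other genes, not siControl beside Nondifferentiation. They are therefore no evidence on the difference between the libraries.

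**Figure D4:**
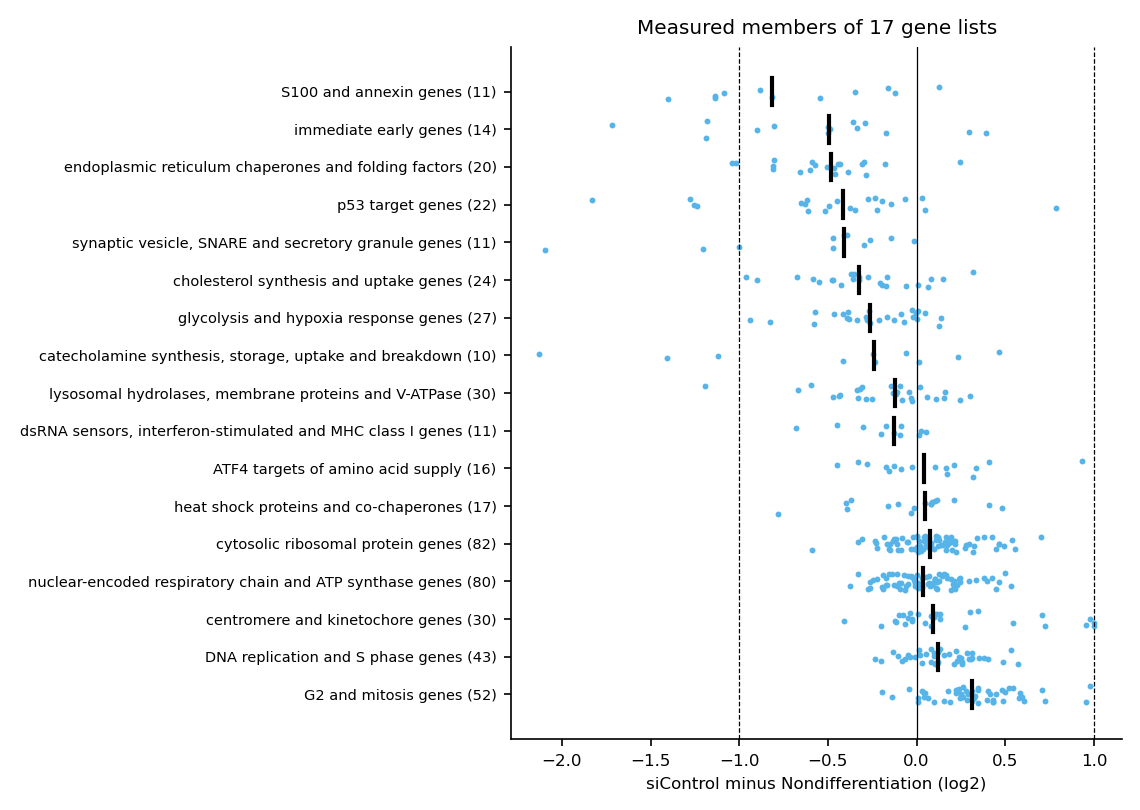
Difference (siControl minus Nondifferentiation, log2) of each measured member of 17 gene lists, with the number of members in brackets. Black bars are medians, which run from -0.82 for S100 and annexin genes to 0.31 for G2 and mitosis genes, and dashed lines mark 2-fold.

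Some single genes higher by 2-fold have roles in neuronal wiring or in transcription. PLXNA4, a semaphorin receptor that steers axons, stood at 10.06 in siControl and 8.71 in Nondifferentiation, beside 10.16 in siSTAU1, 10.42 in siUPF1 and 11.78 in Differentiation, and Nondifferentiation was the lowest library. ROBO2, the receptor of the repellent SLIT proteins, stood at 8.20 and 7.03 in siControl and Nondifferentiation. The 31 measured axon guidance genes as a list were balanced, with 15 negative, 16 positive and a median of 0.01. In it 2 were past 2-fold higher and 0 lower, beside 0.222% and 0.572% of all measured genes. SLIT2 was the lowest member at -0.90, and SEMA5B and EFNA1 differed by -0.56 and -0.50. LMO3, a transcriptional cofactor expressed in neuroblastoma, stood at 11.31 in siControl and 10.12 in Nondifferentiation, beside 11.53 in siSTAU1, 10.68 in siUPF1 and 9.18 in Differentiation. ATOH8, a basic helix-loop-helix factor, differed by 1.27, and ARID5B, a chromatin protein, by 1.07.

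COLEC11, a secreted collectin of innate immunity, stood at 11.02 in siControl and 9.82 in Nondifferentiation, beside 10.57 in siSTAU1, 10.81 in siUPF1 and 13.13 in Differentiation, a difference of 1.19 (SE 0.06). NEIL2, a glycosylase of base excision repair, stood at 10.86 in siControl and 9.77 in Nondifferentiation, beside 10.69 in siSTAU1, 10.77 in siUPF1 and 12.01 in Differentiation. Nondifferentiation was the lowest of the 5 libraries for both. MIR99AHG, the host transcript of a microRNA cluster, differed by 1.36. The other higher genes reported are C14orf93, ZNF181, SH2D3C, UBL7-AS1, ADCK4, SLITRK6 and SMTN, with differences from 1.01 to 1.15. ZNF181 was the only one of 226 measured zinc finger genes past 2-fold higher, beside 0.222% of all measured genes. That list, written after values were seen, had a median of 0.10 with 73 negative and 153 positive, where 49.0% of all measured genes were negative.

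Genes of sterol synthesis and of glycolysis lay slightly lower. Of 29 listed cholesterol genes 24 were measured: 19 were negative and 4 passed 1.5-fold lower, beside 49.0% and 3.21% of all measured genes. In this list 0 passed 2-fold, and the median was -0.32. MSMO1, a sterol oxidase, stood at 9.46 in siControl and 10.42 in Nondifferentiation, beside 9.65 in siSTAU1, 9.28 in siUPF1 and 9.44 in Differentiation. STARD4, a sterol carrier, differed by -0.90, while FDPS differed by 0.32. The sterol regulatory element TCACNCCAC was in 1 of 18 promoters of this list (5.56%) and in 0.851% of measured genes. Glycolysis and hypoxia genes had a median of -0.26 over 27 measured, with 2 past 1.5-fold lower, the stress-induced DDIT4 at -0.94 and the collagen hydroxylase P4HA2 at -0.83. LDHA, lactate dehydrogenase A, differed by 0.01.

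No measured interferon-stimulated or RNA sensor gene was 2-fold higher in the transfected control. Of 46 listed genes 11 were measured, with a median of -0.13, 0 past 2-fold in either direction and 1 past 1.5-fold lower, IRF3. EIF2AK2, the kinase PKR that double-stranded RNA activates, stood at 9.62 in siControl and 10.07 in Nondifferentiation. MX1, an antiviral GTPase, and IFIH1, a sensor of long double-stranded RNA, were listed at 0 in all 5 libraries. IFIT1 did not reach the floor, at 7.46 and 7.09, nor did DDX58, the sensor RIG-I, at 5.04 and 5.14. Also below the floor, and named after its values were seen, the interferon-inducible IFI27 stood at 6.61 in siControl and 3.41 in Nondifferentiation, 9.25-fold higher from about 81 and 10 reads (SE 0.48 on the log2 scale). Nondifferentiation was the lowest library, since siSTAU1 had 6.18, siUPF1 5.77 and Differentiation 5.89. TAP1, a peptide transporter, had about 8 reads in siControl and was listed at 0 in Nondifferentiation. The RNA interference machinery had a median of 0.14 over 13 measured genes, 0 past 1.5-fold, with AGO2, the slicer, at -0.19 and DICER1 at -0.01.

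Among genes bearing on the study's question, nonsense-mediated decay targets and decay factors had medians near that of all genes, apart from single members. Of 28 measured genes listed as nonsense-mediated decay targets 2 were lower by 2-fold, CDKN1A at -1.83 and UPP1 at -1.42, beside 0.572% of all measured genes. In that list 0 were higher and the median was -0.05. Staufen-mediated decay targets, 8 of them measured, had a lower median of -0.17, with 5 negative and 0 past 2-fold. Their median was -0.39 with a floor of 9. The 25 measured decay factors had a median of 0.06, with UPF2 at 0.56, UPF3B at 0.59 and PNRC2 at 0.60. Housekeeping lists lay near the median of all genes: cytosolic ribosomal proteins had 0.07 over 82 genes, respiratory chain genes 0.04 over 80 and heat shock proteins 0.05 over 17.

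Markers of other cell types were low in both libraries. Of 10 hepatocyte markers 0 were measured, and their summed linear level was 85.0 in siControl and 65.2 in Nondifferentiation, with 8 at 0 in each. Blood markers summed to 131.2 and 177.0 and Schwann and glial markers to 46.4 and 64.6, with SOX10 listed at 0. Fibroblast markers summed to 1426.4 and 1089.8, with COL3A1 the only measured member, at 9.52 and 9.21. LUM, a matrix proteoglycan below the floor, stood at 7.68 in siControl and 6.40 in Nondifferentiation. Epithelial markers summed to 635.8 and 600.6, with CLDN7 the only measured member. The part of these levels in the differences was not tested.

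The differences moved slightly with base composition. Across 8215 measured genes with a matched transcript, GC content and difference had a Pearson r of -0.15 and a Spearman rho of -0.13. This describes genes of the same libraries, which are not independent replicates. In 10 equal bins of GC content, the lowest bin had a median difference of 0.04, with 5 genes higher and 0 lower at 2-fold, and the highest bin had -0.10, with 1 higher and 13 lower. Median GC content was 55.4% in the 2-fold lower genes, 51.1% in the higher genes and 47.5% in all. With the GC trend removed, 61 of the 64 genes with a value stayed past 2-fold and 0 changed sign.

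**Figure D5:**
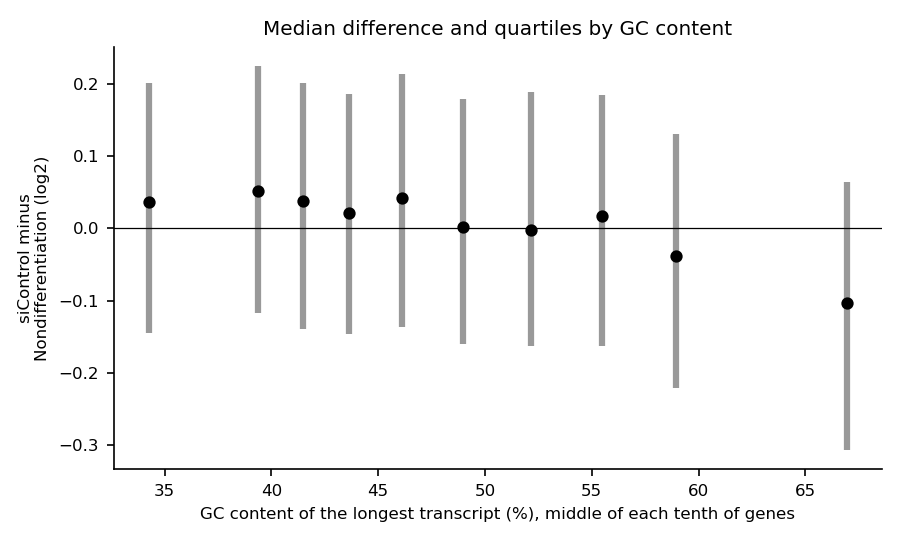
Median difference (siControl minus Nondifferentiation, log2; black points) and quartiles (grey bars) in 10 equal bins of measured genes ordered by the GC content of the longest transcript (percent). The medians run from 0.04 in the lowest bin to -0.10 in the highest.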

How the data were processed

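Each deposited file gave 1 log2 value for each of 26364 gene symbols, and the deposited log2 values were used as they stand. Libraries were made from 500 ng of total RNA with a Lexogen QuantSeq kit, per the labels' protocols. The submitters' processing notes name Bowtie2, edgeR and the build hg19 but not what each did. How reads were counted, with which annotation and on which strand, was not given in the sources used here. In each library the highest value was 18.01, and the upper quartile lay between 8.63 and 8.64, a pattern of quantile normalization, which is inferred from the values. Such scaling removes differences in total RNA. Values of 0 are called listed at 0, and no fold is given where the smaller value came from about 3 reads or fewer.

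Samples were grouped by title, with 1 library in each of 5 groups, so no test was run. Differences were counted at 2-fold among genes with the larger value at or above 7.8. Named genes were those past 2-fold, up to 3 highest and 3 lowest measured members of each list, defining members, STAU1 and UPF1. FOS, ANXA2, SYN2, SCG2 and the p53, ER, IGF, lamin and DLK1 examples beyond these were named after their values were seen. Members and all 44 lists were chosen with earlier results of these data known, and 6 lists were added after the values were seen. Some genes chosen by this rule are not reported here. Overlapping genes and near-identical copies may share reads.

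Promoters (RefSeq, GRCh38.p14) were matched by symbol for 6699 measured genes. Of each, the 250 bases before the gene start were searched on both strands for 8 motifs: the sterol element TCACNCCAC, the cAMP element TGACGTCA, the AP-1 site TGANTCA, the hypoxia core ACGTG, the E-box CACGTG, which holds that core, the cell cycle element TTTGAA, the box CCAAT and the ER stress element. The AP-1, hypoxia core and E-box motifs were found in 3.33%, 24.6% and 9.2% of measured genes with an entry. Of the 2-fold lower genes 31 had an entry, and 2, 3 and 1 of these held the motifs (6.45%, 9.68% and 3.23%). GC content came from the longest GENCODE release 29 transcript for 95.9% of measured genes. That reference is of another build than hg19, so no gene positions are given for the deposited values. The steps were tested on simulated data. Tables and correlations were handled in pandas 2.3.3 and numpy 2.4.6 under Python 3.11.15, and plots in matplotlib 3.10.9. Alternatives covered the floor, the fold threshold and the scaling.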

Additional observations from a re-analysis of the deposited data

How the results depend on the processing

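No paired analysis was possible because each group had 1 library. The counts rested on the floor and the fold threshold. Of genes higher in siControl, 19 as reported, 38 passed with a floor of 7, 7 with a floor of 9, 6 with both values at or above 7.8, 785 with no floor, 195 at 1.5-fold and 1 at 3-fold. Of genes lower in siControl, 49 as reported, 30 passed with a floor of 9, 28 with both values at or above 7.8, 742 with no floor, 275 at 1.5-fold and 12 at 3-fold. Rescaling moved the counts little: centring on the median gave 17 higher and 50 lower, and removing the trend with level 19 and 49. Removing the GC trend gave 17 and 48, over only the 8215 measured genes with a GC value. Of the 68 genes past 2-fold as reported, 64 have such a value. Of 264 list medians recomputed under alternatives 10 changed sign, in 8 lists. In 9 of them the reported median was at most 0.05 in size, the clock list moving furthest, from -0.02 to 0.27 with a floor of 9. The other was that of the retinoic acid list, which turned from -0.28 to 0.10 with a floor of 7, which admits more genes. The median of the small RNA symbols went from -0.49 to -0.0011 with the GC trend removed, over only the 18 of 36 members with a GC value, so that value is void. Without replicate cultures, counting error is the only error known, and differences between siControl and Nondifferentiation in transfection, handling and medium cannot be told apart.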

Other observations

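Single regulators of other pathways differed by less than 2-fold. PER1, a repressor of the circadian clock, had a difference of -0.95 and ARNTL, its activator, 0.72, with a median of -0.02 over 9 measured clock genes, or 0.27 with a floor of 9. In the TGF-beta and BMP list, 17 genes were measured with a median of 0.11. ID1, a BMP target, had -0.69 there, and the inhibitory SMAD6 and SMAD7 had 0.62 and 0.61. Notch genes had a median of -0.29 over 12 measured members, with HES6 at -0.70 and LFNG, which modifies Notch receptors, at -0.65. HOTAIR, a noncoding RNA of the HOXC cluster, stood at 12.38 in siControl and 11.49 in Nondifferentiation, beside 12.38 in siSTAU1, 12.66 in siUPF1 and 13.53 in Differentiation, and was named after its values were seen.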
